A study of Mus musculus with 6 samples.

Results

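Serum response factor, encoded by Srf, and 6 genes for its cofactors were followed in the mouse aorta after removal of Srf from smooth muscle. The 7 genes were taken by symbol from a count table of 55453 genes: Srf, the myocardin family (Myocd, Mrtfa and Mrtfb) and the ternary complex factors (TCFs; Elk1, Elk3 and Elk4). All 7 were present and passed the filter on low counts that left 18192 genes for testing.

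The KO group was homozygous for a floxed Srf allele and the Ctrl group was heterozygous for it. Mice of both groups were hemizygous for Itga8-CreERT2, a tamoxifen-activated Cre recombinase at the locus of a smooth muscle integrin, and all received 5 daily intraperitoneal doses of tamoxifen at 33 mg/kg. Harvest followed 10 days after the tamoxifen course; each aorta was stripped of adventitia and endothelium and frozen on its own, per the labels' protocols, and its poly(A) RNA was made into stranded libraries. The Ctrl animals therefore had Cre, tamoxifen and 1 floxed allele as well, so the comparison sets loss of both copies against loss of 1 copy. The labels give neither age nor sex, nor the exons that the loxP sites flank.

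Counts of 2 KO libraries (replicates 2 and 3) and 3 Ctrl libraries (replicates 1 to 3) were analysed, and not that labelled KO replicate 1. According to the submitters, 1 homozygous sample was dropped as an outlier or sampling error. KO libraries held 27685188 and 31873243 counts, and Ctrl libraries held 26177821 to 34311855. Levels are given as CPM, the counts of a gene scaled to a common library size. Along principal component 1, the KO libraries lay at -22.7 and -46.6, Ctrl replicates 1 and 2 at -4.54 and 7.12, and Ctrl replicate 3 far from the rest at 66.7. All 8 smooth muscle markers were detected in every library, with summed levels of 15079 to 15710 CPM in KO aortae and 25765 to 27331 CPM in Ctrl aortae. Markers of other tissues also differed: 12 of 12 skeletal muscle markers were tested, and their sum was 983 to 2673 CPM in KO aortae and 10.9 to 662 CPM in Ctrl aortae, lowest in Ctrl replicate 3, with Myh4 and Pvalb at 0 in a library. Adipocyte markers (10 of 10 tested, none at 0) summed to 3759 to 4157 CPM in KO aortae and 2042 to 3137 CPM in Ctrl aortae, and macrophage markers (10 of 10, none at 0) to 443 to 586 CPM in KO aortae and 271 to 381 CPM in Ctrl aortae. Brown adipocyte markers (8 of 8, none at 0) summed to 1187 to 1233 CPM in KO aortae and 503 to 931 CPM in Ctrl aortae, and erythrocyte markers (5 of 5, none at 0) to 23.9 to 28.9 CPM in KO aortae and 37.9 to 297 CPM in Ctrl aortae. Mitochondrial genes took 7.36% to 7.95% of counts in KO libraries and 3.95% to 5.71% in Ctrl libraries. With tissue markers and mitochondrial genes left out before scaling, 18084 genes remained and the log2 fold change of Srf was -0.59 (SE 0.122, edgeR adjusted p = 0.108). That run bears on the scaling alone, since other transcripts of these tissues stayed in. The part of these tissues and of mitochondrial genes in the results was not tested.

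Serum response factor is a MADS-box protein that binds the CArG box, a short A/T-rich DNA element, as a dimer. It has little choice of target on its own and is directed by partners. Myocardin and the 2 myocardin-related transcription factors (MRTFs) drive contractile and cytoskeletal genes, with the MRTFs held in the cytoplasm by monomeric actin. The TCFs are ETS-domain proteins that are phosphorylated by MAP kinases and drive immediate-early genes, and they compete with the myocardin family for the same surface of serum response factor.

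Srf is itself a gene with CArG boxes before its start. The 250 bases before the RefSeq start (GRCm38.p6, chr17:46556163-46556412, minus strand, printed 5′ to 3′) are shown because they hold 2 CArG boxes and 1 ETS core, the elements read by serum response factor and by ETS proteins. Capitals mark the ETS core, which begins 122 bases before the start, and the CArG boxes, which begin 82 and 62 bases before it.
Srf: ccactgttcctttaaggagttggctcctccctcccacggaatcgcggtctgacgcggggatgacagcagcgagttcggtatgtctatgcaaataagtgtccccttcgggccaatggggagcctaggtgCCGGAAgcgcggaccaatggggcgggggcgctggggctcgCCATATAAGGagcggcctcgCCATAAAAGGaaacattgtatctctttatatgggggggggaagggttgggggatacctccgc

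RefSeq promoters were matched for 6 of the 7 genes, all but Myocd. Of these 6, Srf held the CArG box (searched without mismatch; the box reads the same on both strands), as did 1.62% of all 27025 genes with a promoter of this length in the table; a gene with several promoters counts once if any holds the motif. With 1 mismatch allowed in the A/T core, Mrtfa also held one, as did 9.78% of all genes with a promoter. The ETS core, CCGGAA on either strand, was in a promoter of Srf, Mrtfb and Elk4, and in a promoter of 13.6% of all these genes. Counted per promoter, the shares were 1.47%, 8.59% and 12.03% of 32851. A match describes the letters in this window and not a bound site.

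Srf was lower in KO than in Ctrl aortae, and the groups did not overlap. Srf (ENSMUSG00000015605.6, GRCm38 chromosome 17, 46548329 to 46556175, 7 exons in its longest transcript) had 45.0 and 38.6 CPM in KO replicates 2 and 3, against 56.1, 64.4 and 68.3 CPM in Ctrl replicates 1, 2 and 3. Both KO libraries were below every Ctrl library, and the KO mean was 66.4% of the Ctrl mean. The log2 fold change was -0.59 (SE 0.122, 95% interval -0.88 to -0.30), the adjusted p by edgeR's quasi-likelihood test was 0.115, and Srf was 288th of 18192 genes by p. DESeq2 gave an adjusted p of 0.00373. Counts over the whole gene include exons outside a deletion, so this value does not measure how much Srf was removed, and in whole tissue fewer cells of a type and less RNA per cell cannot be told apart.

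None of the 7 genes passed edgeR's adjusted threshold. It called 0 of the 7 genes at an adjusted p under 0.05, and no gene of the whole table (0% lower and 0% higher of those tested), and limma-voom called 0 of the 7. At an unadjusted p under 0.05 only Srf was lower, where 6.75% of all genes were lower and 9.04% higher. DESeq2 also called only Srf lower, where it called 2.61% of its genes lower and 3.33% higher. Groups did not overlap for 3 of the 7: Srf and Myocd were lower in every KO library (18.2% of all genes were) and Elk3 was higher (17.4% of all genes were), where 35.6% of all genes did not overlap in either direction.

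**Figure D1:**
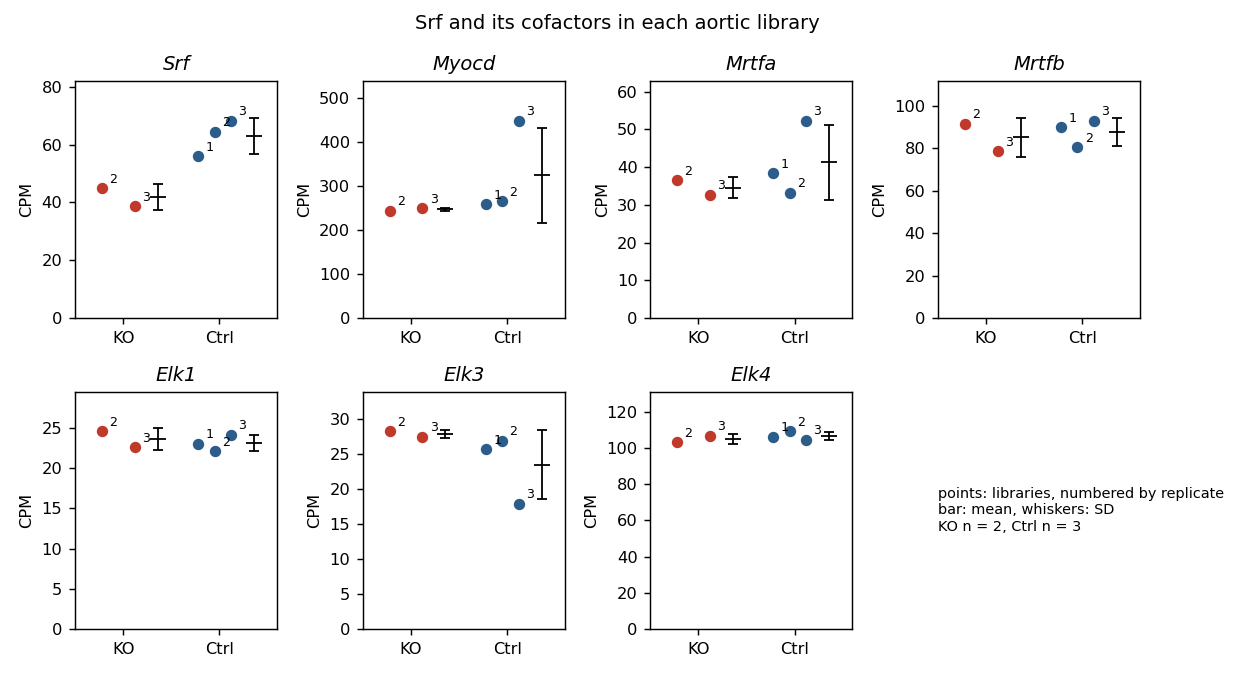
CPM (vertical axes, from 0) of each gene in each library, KO left and Ctrl right, numbered by replicate, with the mean and SD (KO n = 2, Ctrl n = 3). Srf is lower in both KO libraries than in any Ctrl library; Ctrl replicate 3 is far above the other libraries for Myocd, at 449 CPM, and below them for Elk3, at 17.9 CPM.

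In the myocardin family, Myocd, the cofactor found mainly in smooth and cardiac muscle, was set apart by 1 Ctrl library. Myocd (ENSMUSG00000020542.18, chromosome 11, 65176561 to 65269989) had 244 and 250.1 CPM in KO replicates 2 and 3, against 259, 266 and 449 CPM in Ctrl replicates 1, 2 and 3. The groups did not overlap, but the gap between the higher KO library and the lower 2 Ctrl libraries was small beside the distance to Ctrl replicate 3. Its log2 fold change was -0.39 (SE 0.243, 95% interval -0.97 to 0.18, edgeR adjusted p = 0.488), and it was -0.070 (SE 0.0845) without Ctrl replicate 3. The range of Myocd among the Ctrl libraries, 0.79 on the log2 scale, exceeded that of 82.6% of all genes tested.

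Mrtfa, formerly Mkl1, carries the actin signal to serum response factor in most cell types. Mrtfa (ENSMUSG00000042292.16, chromosome 15, 81012281 to 81190757) had 36.5 and 32.7 CPM in KO replicates 2 and 3, against 38.3, 33.2 and 52.3 CPM in Ctrl replicates 1, 2 and 3. The groups overlapped, and Ctrl replicate 3 was again the highest library. On the log2 scale the fold change was -0.25 (SE 0.190, edgeR adjusted p = 0.576), and -0.031 without Ctrl replicate 3. Skeletal muscle markers were lowest and fibroblast markers lower in that library than in the other Ctrl libraries (1304 CPM against 1618 and 1904 CPM, 8 of 8 tested and none at 0), and their part in these values was not tested.

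Mrtfb, formerly Mkl2, is the second actin-regulated member. Mrtfb (ENSMUSG00000009569.14, chromosome 16, 13256481 to 13417529) had 91.7 and 78.6 CPM in KO replicates 2 and 3, against 90.1, 80.5 and 93.1 CPM in Ctrl replicates 1, 2 and 3. The groups were interleaved. A log2 fold change of -0.046 was fitted, with a 95% interval of -0.31 to 0.22 (edgeR adjusted p = 0.884).

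Among the TCFs, Elk4 (SAP-1), which binds DNA with serum response factor at immediate-early genes, had the narrowest range of the 7 genes. Elk4 (ENSMUSG00000026436.15, chromosome 1, 132007607 to 132032612) had 103 and 107 CPM in KO replicates 2 and 3, against 106, 109 and 105 CPM in Ctrl replicates 1, 2 and 3. KO differed from Ctrl by -0.022 on the log2 scale, with a 95% interval of -0.22 to 0.18 (edgeR adjusted p = 0.933). Its range among Ctrl libraries, 0.064 on the log2 scale, exceeded that of only 4.14% of all genes tested.

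Elk1, the TCF first used to define the family, also had interleaved groups. Elk1 (ENSMUSG00000009406.13, chromosome X, 20933395 to 20950608) had 24.6 and 22.6 CPM in KO replicates 2 and 3, against 23.1, 22.1 and 24.2 CPM in Ctrl replicates 1, 2 and 3. The log2 fold change was 0.031, with a 95% interval of -0.20 to 0.26 (edgeR adjusted p = 0.914).

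Elk3 (Net), a TCF that can repress transcription and is known from endothelium, was the 1 gene with both KO libraries above every Ctrl library. Elk3 (ENSMUSG00000008398.15, chromosome 10, 93247414 to 93311135) had 28.3 and 27.5 CPM in KO replicates 2 and 3, against 25.7, 26.9 and 17.9 CPM in Ctrl replicates 1, 2 and 3. The KO libraries were close to Ctrl replicates 1 and 2, and Ctrl replicate 3 was the low one. The log2 fold change was 0.24 (SE 0.175, 95% interval -0.17 to 0.66, edgeR adjusted p = 0.556), and 0.10 (SE 0.0941) without Ctrl replicate 3.

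Endothelial markers, 10 of 10 tested and none at 0, summed to 1217 and 455 CPM in KO replicates 2 and 3, and to 839, 1073 and 810 CPM in Ctrl replicates 1, 2 and 3. Vwf, the most abundant of them, had 463 and 96.0 CPM in KO replicates 2 and 3, so the sum does not describe every marker. Of the 10, 1 had both KO libraries above every Ctrl library (17.4% of all genes did) and 0 had both below. That 1 was Kdr, named after its value was seen, at 60.1 and 59.9 CPM in KO replicates 2 and 3. The part of endothelial RNA in the Elk3 values was not tested. Exons of Elk3 overlap exons of Cdk17 on the other strand over 6.95% of their length, and 4.76% of the 100-base words of its transcripts also occur in other genes, so part of its count is uncertain. For the other 6 genes the shared words made up at most 0.90%. Exon overlap with a gene on the same strand covered 1.41% of Elk1 and 1.62% of Elk4. On the other strand it covered at most 1.80%, for Mrtfb.

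**Figure D2:**
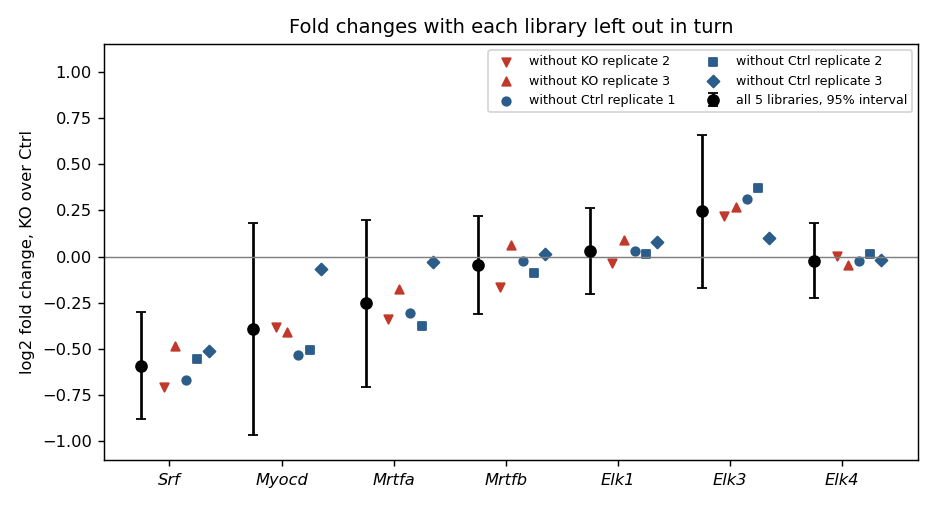
Log2 fold change of KO over Ctrl for each gene with all 5 libraries (black, 95% interval) and with each library left out (red, a KO library; blue, a Ctrl library). Srf stays between -0.70 and -0.48, while Myocd moves to -0.070 and Elk3 to 0.10 without Ctrl replicate 3.

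To compare levels between genes, CPM were divided by exon length in kilobases (CPM per kb). Myocd had the highest level of the 7 genes in every library, at 38.0 and 38.9 CPM per kb in KO replicates 2 and 3 and 40.3, 41.4 and 69.9 CPM per kb in Ctrl replicates 1, 2 and 3. Its lowest library was above the highest library of any other member. Averaged over the 5 libraries, Srf (18.8 CPM per kb), Elk4 (16.6), Mrtfb (9.66), Mrtfa (6.31), Elk3 (5.55) and Elk1 (4.33) came after it. Over all libraries the ranges of Srf and Elk4 overlapped, as did those of Mrtfa and Elk3 and those of Elk3 and Elk1, while Elk4 lay above Mrtfb and Mrtfb above Mrtfa in every library.

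The order of Srf and Elk4 differed between the groups on this scale. Srf was at 15.5 and 13.4 CPM per kb in KO replicates 2 and 3, below Elk4 at 16.1 and 16.7, and at 19.4, 22.3 and 23.6 CPM per kb in Ctrl replicates 1, 2 and 3, above Elk4 at 16.6, 17.1 and 16.3. With the length of the longest transcript in place of all exons, Srf was again below Elk4 in KO aortae (17.2 and 14.8 against 23.3 and 24.1 CPM per kb) but the 2 genes overlapped in Ctrl aortae (21.4 to 26.1 against 23.6 to 24.7 CPM per kb). That length also put Elk1 above Elk3 in the mean. The isoforms used in these aortae are not resolved by gene counts.

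**Figure D3:**
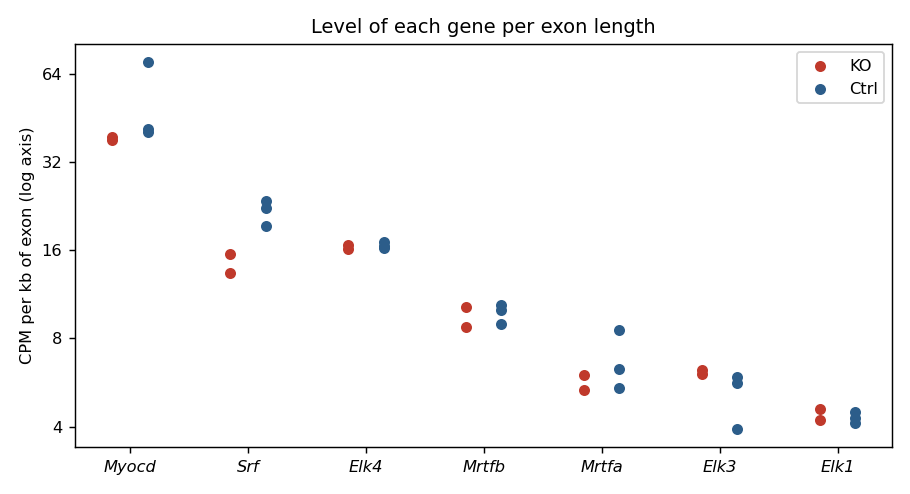
Level of each gene in CPM per kilobase of exon (log axis), 1 point per library, KO in red to the left and Ctrl in blue to the right, ordered by the mean over libraries. Myocd lies above all others; the KO points of Srf lie below those of Elk4 and its Ctrl points above.

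Within the myocardin family, Myocd made up 71.8 ± 2.31% of the summed level per kb in KO aortae (SD, n = 2) and 74.7 ± 3.77% in Ctrl aortae (SD, n = 3). Mrtfb made up 17.7 ± 1.64% in KO and 15.1 ± 3.12% in Ctrl aortae, and Mrtfa the rest. Among the TCFs, Elk4 made up 60.9 ± 1.46% in KO and 63.8 ± 1.85% in Ctrl aortae, and Elk3 22.8 ± 0.481% in KO and 19.7 ± 3.28% in Ctrl aortae. The groups overlapped in the shares of Myocd and Mrtfb. The share of Elk4 was lower in both KO libraries (59.9% and 62.0%) than in any Ctrl library (62.5% to 65.9%), and that of Elk3 was higher in both, by differences about as large as the spread among Ctrl libraries.

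Relative to Srf itself, the summed TCFs and the summed MRTFs were higher in both KO libraries than in any Ctrl library, while Myocd overlapped. The summed TCF level per kb was 1.73 and 2.02 times that of Srf in KO replicates 2 and 3, against 1.37, 1.22 and 1.05 times in Ctrl replicates 1, 2 and 3. The 2 MRTFs together were at 1.04 and 1.05 times the Srf level in KO replicates 2 and 3, against 0.840, 0.646 and 0.802 times in Ctrl replicates 1, 2 and 3. Neither ratio overlapped between groups, and both have in their denominator the gene that was targeted. The summed TCF level itself overlapped, at 26.9 CPM per kb in both KO libraries and 26.5, 27.1 and 24.7 in Ctrl replicates 1, 2 and 3. Mrtfa and Mrtfb each overlapped as well, so the ratios largely restate the difference in Srf. How many other genes would give such a ratio to Srf was not counted. The ratio of Myocd to Srf did overlap, at 2.45 and 2.91 in KO replicates 2 and 3 and 2.08, 1.86 and 2.96 in Ctrl replicates 1, 2 and 3.

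The genes whose levels ran closest to Srf over the 5 libraries were Lims2, Pdlim7, Ptgis, Gm42778 and Pkdcc. Likeness was the root mean square difference of log2(CPM + 0.01), each gene centred on its own mean, among 9661 other genes with a mean of at least 10 CPM; it was 0.0438 for Lims2 and 0.0501 for Pkdcc, where the SD of Srf itself was 0.347. Lims2, a LIM-domain adaptor of focal adhesions, had 231 and 203 CPM in KO replicates 2 and 3, against 281, 341 and 374 CPM in Ctrl replicates 1, 2 and 3. Pdlim7, a PDZ and LIM-domain protein of actin fibres, had 234 and 215 CPM in the KO libraries, against 311, 335 and 384 CPM in the Ctrl libraries, and Ptgis, prostacyclin synthase, had 417 and 382 CPM against 506, 587 and 656 CPM. All 5 shared with Srf the order of the groups, and all had KO replicate 3 as the lowest library. Both traits follow from picking genes by likeness to Srf over these same libraries.

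The nearest genes to Myocd were 9230112J17Rik, Dnajb1, N6amt1, Naf1 and Pde4dip, at 0.0433 to 0.0641. Dnajb1, a heat shock co-chaperone, had 22.3 and 24.8 CPM in KO replicates 2 and 3, against 25.5, 26.4 and 42.3 CPM in Ctrl replicates 1, 2 and 3. Like Myocd, each of the 5 was set apart by Ctrl replicate 3, as follows from picking them by likeness to Myocd over these libraries. The nearest genes to Mrtfa were Arrdc3 and Cyth3, to Mrtfb (1 of 2 named) Setbp1, to Elk1 Ccar2 and Trmu, to Elk3 Ctnnbip1 and Lgi4, and to Elk4 Msra and Emc4. The SD of Elk1 was 0.064 and that of Elk4 0.032 on this scale, so their nearest genes are ones that also varied little.

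**Figure D4:**
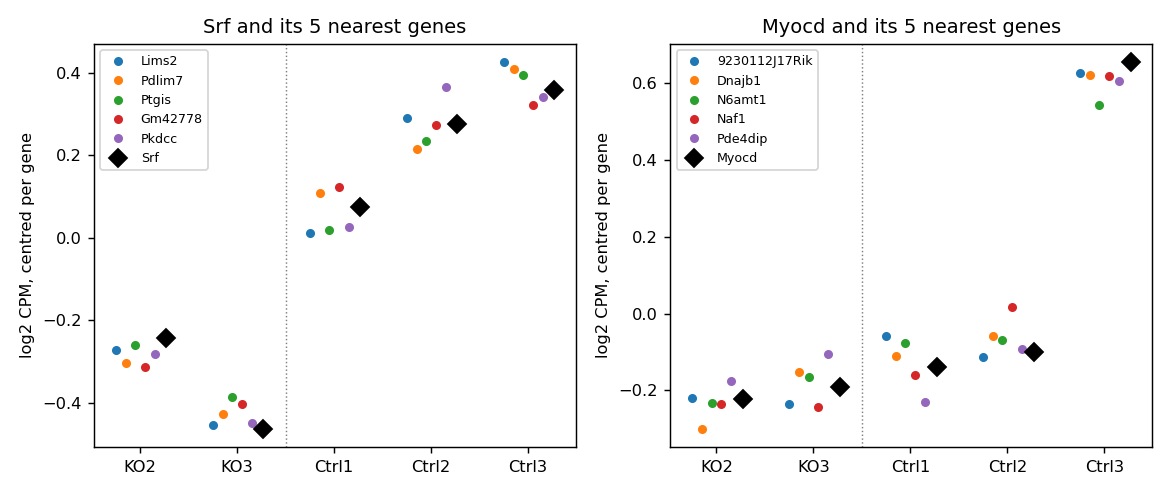
Log2 CPM of Srf (left) and Myocd (right; black diamonds) and of the 5 genes nearest to each, centred on each gene's mean, in the 2 KO and 3 Ctrl libraries. The genes near Srf are lower in both KO libraries than in any Ctrl library, and those near Myocd are marked out by Ctrl replicate 3. Both patterns follow from picking the genes by likeness over these libraries.

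Other partners of serum response factor included 12 tested genes of 14 listed. edgeR and limma-voom called 0 of them. At an unadjusted p under 0.05 edgeR gave 4 lower and 0 higher, beside 6.75% lower and 9.04% higher of all genes tested. DESeq2 called 3 lower (Csrp1, Csrp2 and Pias1, the last named after its value was seen), beside 2.61% lower and 3.33% higher of its genes. The median log2 fold change was -0.16, against -0.018 over all genes tested. Csrp1, a LIM-domain bridge between serum response factor and GATA factors, had 726 and 722 CPM in KO replicates 2 and 3, against 1163, 1221 and 1163 CPM in Ctrl replicates 1, 2 and 3, a log2 fold change of -0.71 (SE 0.0979, edgeR adjusted p = 0.104). Csrp2, its relative in smooth muscle, had 488 and 530.0 CPM in the KO libraries, against 659, 915 and 906 CPM in the Ctrl libraries. The list median was -0.21 without KO replicate 2 and -0.094 without KO replicate 3.

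Pfn1 and Actb, genes tied to the pool of actin monomers, were lower in both KO libraries than in any Ctrl library, as were 18.2% of all genes tested. Neither passed edgeR's test. Most other genes that act on this pool are not reported here. Pfn1, profilin, which binds the actin monomer, had 134 and 137 CPM in KO replicates 2 and 3, against 198, 188 and 178 CPM in Ctrl replicates 1, 2 and 3. Actb, the beta-actin gene, was at 2287 and 2376 CPM in the KO libraries, against 3434, 3936 and 3119 CPM in the Ctrl libraries (log2 fold change -0.58, SE 0.135, edgeR adjusted p = 0.129). Smooth muscle marker RNA was lower in the same libraries, and its part in these values was not tested.

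On the MAP kinase route to the TCFs, 16 of 16 listed genes were tested and the median log2 fold change was -0.039, or -0.063 without Ctrl replicate 1, -0.012 without Ctrl replicate 2 and -0.025 without Ctrl replicate 3. edgeR, DESeq2 and limma-voom called 0. At an unadjusted p under 0.05, 6.75% of all genes tested were lower and 9.04% higher. Of the 16, edgeR gave 0 higher and 1 lower there, near the share of all genes. That gene was Braf, a kinase upstream of ERK, with 128 and 138 CPM in KO replicates 2 and 3, against 151, 152 and 170.5 CPM in Ctrl replicates 1, 2 and 3 (log2 fold change -0.24, SE 0.100, edgeR adjusted p = 0.303). Hras, a small GTPase above it, had 20.5 and 19.5 CPM in the KO libraries, against 21.8, 26.8 and 24.0 CPM in the Ctrl libraries.

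Of genes known to oppose myocardin, 11 of 12 listed were tested, with a median log2 fold change of -0.12, or -0.044 without Ctrl replicate 3. edgeR and limma-voom called 0. At an unadjusted p under 0.05, 6.75% of all genes tested were lower and 9.04% higher. Of the 11, edgeR gave 1 lower and 0 higher there. DESeq2, which called 2.61% of its genes lower and 3.33% higher, called the same single gene, Hey2. Hey2, a Notch-induced repressor, had 51.5 and 41.8 CPM in KO replicates 2 and 3, against 67.4, 67.6 and 64.1 CPM in Ctrl replicates 1, 2 and 3 (log2 fold change -0.51, SE 0.112, edgeR adjusted p = 0.120). Rela, an NF-kappaB subunit, had 62.6 and 58.5 CPM in the KO libraries, against 67.1, 69.3 and 73.7 CPM in the Ctrl libraries, and Hdac5, a class II histone deacetylase, had overlapping groups.

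Target genes were listed by the cofactor family known to drive them. Over all genes tested, edgeR gave 6.75% lower and 9.04% higher at an unadjusted p under 0.05. DESeq2 called 2.61% of its genes lower and 3.33% higher. Of 17 smooth muscle targets, all tested, edgeR and limma-voom called 0, edgeR gave 16 lower and 0 higher at an unadjusted p under 0.05, and DESeq2 called 15 lower and 0 higher; the median log2 fold change was -0.66. Kcnmb1, a potassium channel subunit, had 74.5 and 77.2 CPM in KO replicates 2 and 3, against 127, 129.6 and 122 CPM in Ctrl replicates 1, 2 and 3. Cnn1, calponin, had 479 and 449.8 CPM in the KO libraries, against 809, 938 and 865 CPM in the Ctrl libraries. The 12 cytoskeletal targets had a median of -0.51, or -0.40 without Ctrl replicate 3, with 9 lower and 0 higher at an unadjusted p under 0.05, 5 called lower by DESeq2 and 0 called by edgeR or limma-voom. Of 12 immediate-early targets tested (13 listed), 2 were lower and 3 higher at an unadjusted p under 0.05, DESeq2 called 1 higher, edgeR and limma-voom called 0, and the median was 0.041. That median turned negative without Ctrl replicate 1 (-0.037) and without KO replicate 3 (-0.026). The smooth muscle targets include genes used above as smooth muscle markers. These lists were chosen with earlier results of these libraries known, and the difference between them was not tested.

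Single immediate-early genes lay on both sides of 0. Nr4a1, an orphan nuclear receptor, had 121 and 116 CPM in KO replicates 2 and 3, against 42.2, 78.2 and 80.3 CPM in Ctrl replicates 1, 2 and 3 (log2 fold change 0.83, SE 0.255, edgeR adjusted p = 0.202; DESeq2 adjusted p = 0.0340). Arc had 2.12 and 3.19 CPM in the KO libraries, against 3.66, 5.31 and 5.81 CPM in the Ctrl libraries (log2 fold change -0.88, SE 0.282, edgeR adjusted p = 0.212). Mcl1, an anti-apoptotic gene and the most abundant of the list, had overlapping groups, with 160.1 and 191 CPM in the KO libraries and 183 to 185 CPM in the Ctrl libraries.

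**Figure D5:**
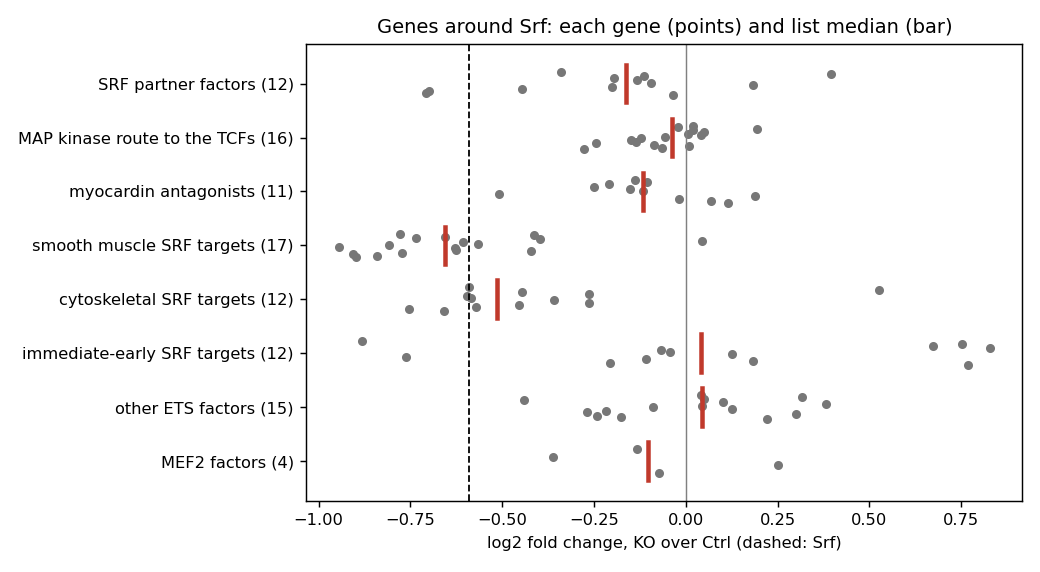
Log2 fold change of KO over Ctrl for every tested gene (points, number tested in brackets) of 8 lists around serum response factor, with the median of each list (red bar) and the value of Srf (dashed line). Smooth muscle targets centre on -0.66, near Srf at -0.59, while the MAP kinase list centres on -0.039 and the immediate-early list on 0.041 with points on both sides.

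Among the listed genes whose RefSeq promoters were searched, 5 held a CArG box, and 30 bases around 1 box of each are shown beside 1 of Srf to set the box next to the gene's measured change. Capitals mark the box.
Srf (chr17:46556225-46556254, minus strand): ctggggctcgCCATATAAGGagcggcctcg
Actg1 (chr11:120348566-120348595, minus strand): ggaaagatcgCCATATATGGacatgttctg
Vcl (chr14:20929161-20929190, plus strand): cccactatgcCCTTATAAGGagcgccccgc
Myl9 (chr2:156775293-156775322, plus strand): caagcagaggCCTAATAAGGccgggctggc
Fhl2 (chr1:43163973-43164002, minus strand): gcgcgtgtgtCCTTATATGGtcaaatgact
Egr2 (chr10:67537787-67537816, plus strand): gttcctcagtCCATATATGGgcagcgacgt

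Each of these 5 genes had both KO libraries below every Ctrl library, as did 18.2% of all genes tested. So did 16 of 17 smooth muscle targets, 9 of 12 cytoskeletal targets, 7 of 12 partners and 2 of 12 immediate-early targets, with or without a box. Of 14 smooth muscle targets with a promoter, 1 held a box. A link between the box and the change was not tested. Actg1, gamma-actin, had 122 and 109.7 CPM in KO replicates 2 and 3, against 164, 197 and 163 CPM in Ctrl replicates 1, 2 and 3. Vcl, vinculin, had 796 and 743 CPM in the KO libraries, against 1116, 1222 and 1306 CPM in the Ctrl libraries. Myl9, a regulatory light chain of smooth muscle myosin, gave a log2 fold change of -0.81 (SE 0.123, edgeR adjusted p = 0.104). Fhl2, a LIM-domain partner of serum response factor, gave -0.45 (SE 0.168, edgeR adjusted p = 0.270) and Egr2, an immediate-early factor, -0.76 (SE 0.281, edgeR adjusted p = 0.262) at 0.954 and 1.32 CPM in KO replicates 2 and 3 and 1.75, 2.34 and 1.71 CPM in Ctrl replicates 1, 2 and 3. These genes were named after the search, and targets whose boxes lie outside the 250 bases are not counted.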

How the data were processed

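The authors deposited raw whole-number counts per gene symbol. The submitters' processing notes name fastp 0.20.0, the aligner STAR 2.7.0f, featureCounts (Subread 1.6.4) and GRCm38. Annotation release and strand setting: not given in the sources used here. Without the strand setting, a gene and its antisense partner may share counts. From these counts, genes kept by filterByExpr were scaled by TMM and tested with edgeR 4.0.16 (quasi-likelihood F test, R 4.3.3) on group alone, with Benjamini-Hochberg adjustment over 18192 genes and a threshold of 0.05. The common biological coefficient of variation was 15.8%. SE is the log2 fold change over the square root of F, and intervals use 3 residual and 4.01 prior degrees of freedom. CPM are TMM-scaled. DESeq2 1.42.0 and limma-voom (limma 3.58.1) were alternatives, with other scalings, filters, a replicate block and each library left out. Scripts were tested on simulated data. Coordinates and exon lengths come from GENCODE M21 (GRCm38), promoters from RefSeq (GRCm38.p6).

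Each library came from a separate aorta, and the 4 pairs of libraries within a group each differed by more than sampling noise. Named genes were the 7 members, the 2 lowest p and the most abundant gene of each list, the top gene of each marker list, and the nearest genes by likeness. With 2 against 3 libraries, an exact permutation p that doubles the smaller tail cannot fall under 0.2, and permutation was not used. The members and lists were chosen with earlier results of these data known. Counts without Ctrl replicate 3, the ETS core search and genes named for their CArG boxes were added after the data were seen. A gene list and some single genes are not reported here.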

Additional observations from a re-analysis of the deposited data

How the results depend on the processing

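The log2 fold change of Srf kept its sign in every alternative run, from -0.70 without KO replicate 2 to -0.22 with libraries scaled to the summed mural cell markers. It passed the threshold with no low-count filter (-0.57, adjusted p = 0.00415) and with DESeq2 (-0.59, adjusted p = 0.00373), and in no other fit. Scaling to mural markers, of which Rgs5 alone made 29.2%, moved the median of all genes to 0.35. In the main fit these 9 markers were themselves lower in KO, with sums of 3430 and 4142 CPM against 4150 to 5364 CPM in Ctrl aortae. DESeq2 called 3 of them lower and 0 higher, so they are no neutral reference. On the mural scale Srf stood at -0.22 (SE 0.240, edgeR adjusted p = 0.524), Myocd at -0.073 and Elk3 at 0.643. With the shift taken off, Srf stood at -0.57, Myocd at -0.42 and Elk3 at 0.29. Taking it off largely undoes the scaling, so those values are no separate check of the main fit. On the mural scale the signs of Mrtfa (0.089), Mrtfb (0.324) and Elk4 (0.346) turned positive. Their values with the shift taken off were -0.26, -0.027 and -0.0047. Myocd stayed negative (-0.53 to -0.070) and Elk3 positive (0.10 to 0.37) with each library left out, as did Mrtfa below 0 (-0.37 to -0.031). Signs turned with a library left out for Mrtfb (-0.163 to 0.0621), Elk1 (-0.0324 to 0.0910) and Elk4 (-0.0462 to 0.0121). Fits with 1 KO library borrow the spread of the Ctrl libraries for it. Genes called lower over the table were 432 with no low-count filter, 411 by DESeq2, 3 with mural scaling and 1 by limma-voom, against 0; genes called higher were 982, 524, 1147 and 0. Leaving out a library gave 0 to 9 lower and 0 to 139 higher, both most without Ctrl replicate 2. With the longest transcript as length, the share of Elk4 was 64.1% in KO and 66.6% in Ctrl aortae. With 1 mismatch in the CArG core, 2 of 6 members held a box. The causes were not tested.

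With the replicate block, 2 genes were called lower and 3 higher, and Srf stood at -0.67 (adjusted p = 0.0997). The deviations of libraries with the same number had correlations of -0.00414 and -0.173 over genes. With 2 KO libraries these deviations mirror each other, so the 2 values are not independent and cannot settle the pairing. The numbers were not taken as pairs. The 2 KO libraries limit the precision of every comparison here, and at the depth of these libraries the lowest count of any of the 7 genes was 450, for Elk3 in Ctrl replicate 3.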

Other observations

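Other ETS-domain factors, the wider family of the TCFs, had a list median close to 0. All 15 listed genes were tested, with a median log2 fold change of 0.044; it was 0.099 without KO replicate 2 and -0.069 without KO replicate 3. edgeR and limma-voom called 0. At an unadjusted p under 0.05, 6.75% of all genes tested were lower and 9.04% higher. Of the 15, edgeR gave 3 lower and 1 higher there. DESeq2, which called 2.61% of its genes lower and 3.33% higher, called 1 of this list lower. That gene was Etv6, a repressor, with 41.6 and 44.7 CPM in KO replicates 2 and 3, against 57.9, 65.1 and 52.5 CPM in Ctrl replicates 1, 2 and 3 (log2 fold change -0.44, SE 0.114, edgeR adjusted p = 0.152; DESeq2 adjusted p = 0.0410). Elf1 had 53.0 and 52.9 CPM in the KO libraries, against 66.1, 61.0 and 64.2 CPM in the Ctrl libraries. Elf2, the most abundant of the list, had 82.1 and 82.5 CPM in the KO libraries, against 93.5, 97.6 and 95.8 CPM in the Ctrl libraries.

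The MEF2 factors are the other MADS-box proteins of muscle. Mef2c had 149 and 182 CPM in KO replicates 2 and 3, against 226, 214 and 198 CPM in Ctrl replicates 1, 2 and 3 (log2 fold change -0.36, SE 0.121, edgeR adjusted p = 0.227). Mef2a, the most abundant of the 4, had overlapping groups, with 262 and 294 CPM in the KO libraries and 306, 280.0 and 293 CPM in the Ctrl libraries. Mef2d also overlapped, at 169.9 and 159.7 CPM in the KO libraries and 166, 172 and 204 CPM in the Ctrl libraries.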
